A study of Mus musculus with 6 samples.

Results

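Among dissociated cells of mouse pancreatic islets, 59 of 2115 kept wells held many transcripts of both somatostatin (Sst) and glucagon (Gcg) and few of insulin. They are called Sst-Gcg wells here. A well was 1 of these when Sst made up at least 0.73% of its unique molecular identifiers (UMIs, counts of distinct transcripts), Gcg at least 2.3%, and Ins1 and Ins2 together under 3.3%. The same thresholds gave 153 glucagon-only wells, 540 somatostatin-only wells and 1000 insulin-only wells. The wells were thus chosen by their hormone levels, which are described below without a test. The tests concern the share of such wells between plates, their depth, and genes that the thresholds did not use. Only the gene test between partial pancreatectomy and sham operation also took in Sst, Gcg, Ins1 and Ins2.

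Somatostatin is made by delta cells and glucagon by alpha cells, which in the islet touch each other and the insulin-making beta cells. Somatostatin acts on neighbouring alpha and beta cells and holds back the release of their hormones, while glucagon raises blood glucose through the liver. Irx1 and Irx2 are transcription factors of mouse alpha cells, and Hhex is the transcription factor that maintains delta cell identity. A well with both hormones may hold cells of both kinds or 1 cell with both, and these counts cannot tell these apart.

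Islets came from male mice of the strain Sox9-CreER; tdTomato, operated on at 12 weeks of age and studied 4 weeks later. The operation studied was a partial pancreatectomy (ppx), and its control a sham operation, with 3 plates of 384 wells for each. All mice, sham-operated ones too, carried a Cre recombinase switched on by tamoxifen and driven by Sox9, which ductal and progenitor cells transcribe, with the tdTomato reporter, and had received tamoxifen (8 mg) from 10 weeks of age. The plates ppx 1 and sham 1 held tomato-positive wells, 4 rows of sham 2 were positive and the rest of it negative, and ppx 2, ppx 3 and sham 3 were tomato-negative. The labels do not say which mice filled which plate, so p-values measure the spread between plates, which may be technical. Sox9 itself had 1 UMI in all Sst-Gcg wells and 22 UMIs in the somatostatin-only wells, and Mki67, a proliferation gene, had none in either.

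Plates held between 1250861 and 1508513 UMIs and kept 339 to 362 wells each. No well name was shared between plates. The Sst-Gcg wells numbered 8, 3 and 2 on the ppx plates and 28, 14 and 4 on the sham plates. On the tomato-positive plates most kept wells were somatostatin-only, 224 on ppx 1 and 212 on sham 1. On the tomato-negative plates most were insulin-only, 294 on ppx 2, 292 on ppx 3 and 193 on sham 3. No well was removed as a doublet, since wells with hormones of more than 1 cell type are described here.

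In GRCm38 coordinates Sst lies on the minus strand of chromosome 16 (23889573 to 23890958) and Gcg on the minus strand of chromosome 2 (62474530 to 62483650). The thresholds fix that the other classes lie below the Sst-Gcg wells in at least 1 of these hormones or above them in insulin. Sst in the Sst-Gcg wells ran from 0.751% to 11.1% of UMIs with a median of 2.79%. Its median was 0.0361% in glucagon-only wells and 0.0303% in insulin-only wells, where the highest single value was 0.720%. Gcg ran from 3.31% to 32.9% with a median of 19.9% in the Sst-Gcg wells, against a median of 0.287% in somatostatin-only wells and 0.114% in insulin-only wells. Few wells lay near the thresholds. The Sst-Gcg wells nearest to the Sst threshold had 0.751%, 0.926% and 0.954%, and the glucagon-only wells nearest to it had 0.686%, 0.611% and 0.199%. For Gcg the nearest Sst-Gcg wells had 3.31%, 3.89% and 5.67%, and the nearest somatostatin-only wells 1.54%, 1.36% and 1.30%. Insulin reached 1.41% in the Sst-Gcg wells, while the lowest value among wells high in all 3 hormones was 11.4%.

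**Figure D1:**
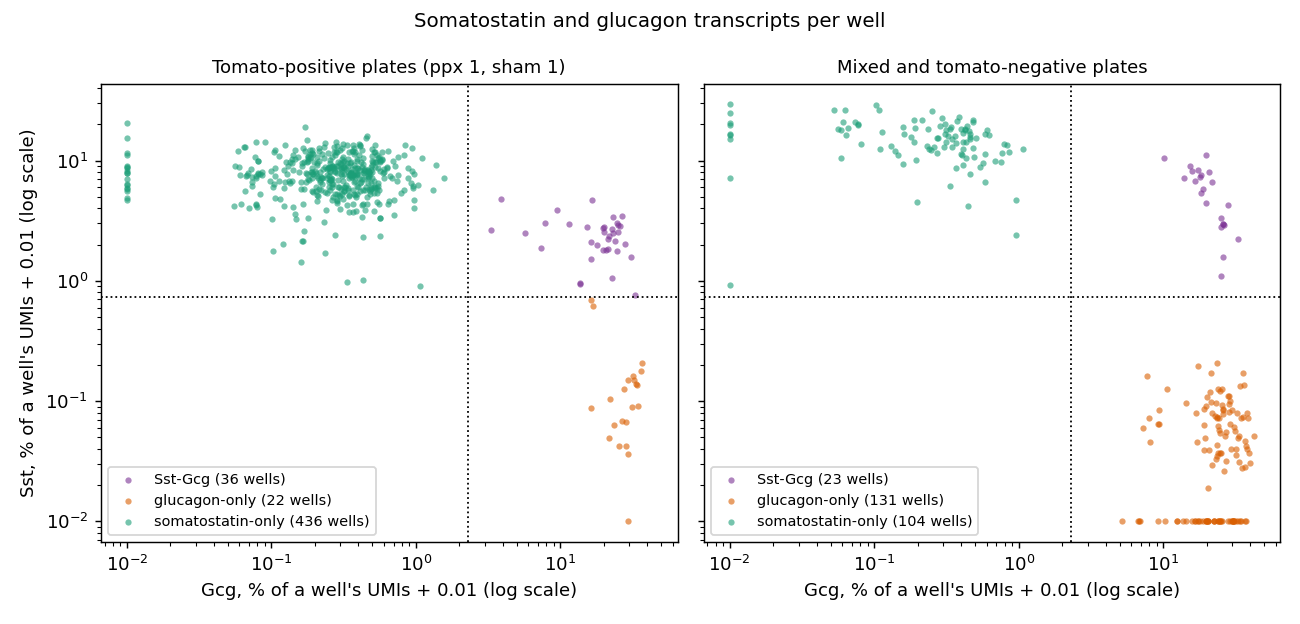
Gcg (horizontal axis) against Sst (vertical axis) as percent of a well's UMIs plus 0.01, both on log scales, for Sst-Gcg, glucagon-only and somatostatin-only wells, with the tomato-positive plates on the left. Each point is a well and dotted lines mark the thresholds of 2.3% and 0.73%; the Sst-Gcg wells lie in the upper right corner, below most somatostatin-only wells in Sst, with a median Gcg of 19.9%, against 24.7% in glucagon-only wells.

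The medians of both hormones were lower in the Sst-Gcg wells than in the wells with a single hormone on every plate, and by more for somatostatin than for glucagon. The median Sst of the Sst-Gcg wells was 2.06%, 6.62% and 4.57% on ppx 1, 2 and 3 and 2.55%, 3.87% and 7.64% on sham 1, 2 and 3. In somatostatin-only wells the medians were 7.77%, 18.5% and 20.3% on the ppx plates and 7.70%, 13.4% and 18.5% on the sham plates. The lowest medians of both classes were on the tomato-positive plates. Adding up every possible pair of 1 glucagon-only and 1 somatostatin-only well of a plate gave median Sst of 1.457%, 6.02% and 6.72% on the ppx plates and 2.25%, 4.34% and 6.76% on the sham plates. For Gcg the Sst-Gcg wells had medians of 23.3%, 21.6% and 23.0% on the ppx plates and 19.9%, 22.4% and 14.8% on the sham plates. Glucagon-only wells had medians of 24.5%, 23.8% and 30.9% on the ppx plates and 29.4%, 29.1% and 20.5% on the sham plates. The pairs gave 18.9%, 15.2% and 19.9% on the ppx plates and 20.9%, 19.5% and 13.0% on the sham plates. Between 90.6% and 99.5% of the possible pairs of a plate would themselves have met the rule for Sst-Gcg wells. Each well of a pair had already passed 1 of the hormone thresholds, so this share was largely fixed by the rule.

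The Sst-Gcg wells made up 2.25%, 0.829% and 0.571% of the kept wells of the ppx plates and 7.89%, 3.97% and 1.18% of those of the sham plates. Exact 95% intervals (Clopper-Pearson, counting error only) ran from 0.975% to 4.38% on ppx 1 and from 5.30% to 11.2% on sham 1. The mean was 1.22% ± 0.902 on ppx plates and 4.34% ± 3.37 on sham plates (SD, n = 3 each), a difference of -3.13 points that did not pass an exact two-sided permutation test (p = 0.2, 0.3 after Benjamini-Hochberg adjustment over 6 tests of shares). The groups overlapped. Within the tomato-positive plates the difference was -5.64 points, and within the tomato-negative plates -0.480 points, with 1 or 2 plates on a side and no test.

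Somatostatin was found in a larger share of the glucagon wells on both tomato-positive plates than on any other plate. Of wells high in Gcg and not in insulin, 57.1% on ppx 1 and 63.6% on sham 1, the tomato-positive plates, were also high in Sst. On the tomato-negative plates the share was 15% on ppx 2, 20% on ppx 3 and 6.45% on sham 3, and on the mixed plate 22.6%. The mean was 60.4% ± 4.59 on tomato-positive plates (n = 2) and 13.8% ± 6.85 on tomato-negative plates (n = 3), 46.6 points apart, with no overlap (exact two-sided permutation p = 0.1, the smallest these plates allow, adjusted 0.3). The tomato-positive plates also held more somatostatin wells, so the label and the number of delta cells in the sort cannot be told apart. Between operations this share did not differ beyond its spread, with 30.7% ± 23.0 on ppx plates and 30.9% ± 29.5 on sham plates (difference -0.175 points, exact permutation p = 1, n = 3 each). That difference changed sign without ppx 2 (7.68), ppx 3 (5.18) or sham 1 (16.2). Read from the somatostatin side, Sst-Gcg wells were 3.45%, 25% and 14.3% of the Sst-high wells on the ppx plates and 11.7%, 17.9% and 17.4% on the sham plates (difference of means -1.42 points, exact permutation p = 0.8, n = 3 each). The tomato-positive mean was then 7.56% ± 5.81 (n = 2) and the tomato-negative mean 18.9% ± 5.51 (n = 3, exact permutation p = 0.2). For comparison, wells high in both insulin and glucagon numbered 2, 0 and 0 on the ppx plates and 1, 1 and 2 on the sham plates. Wells high in both insulin and somatostatin numbered 77, 6 and 5 on the ppx plates and 56, 25 and 6 on the sham plates. These 175 wells were also most numerous on the tomato-positive plates.

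**Figure D2:**
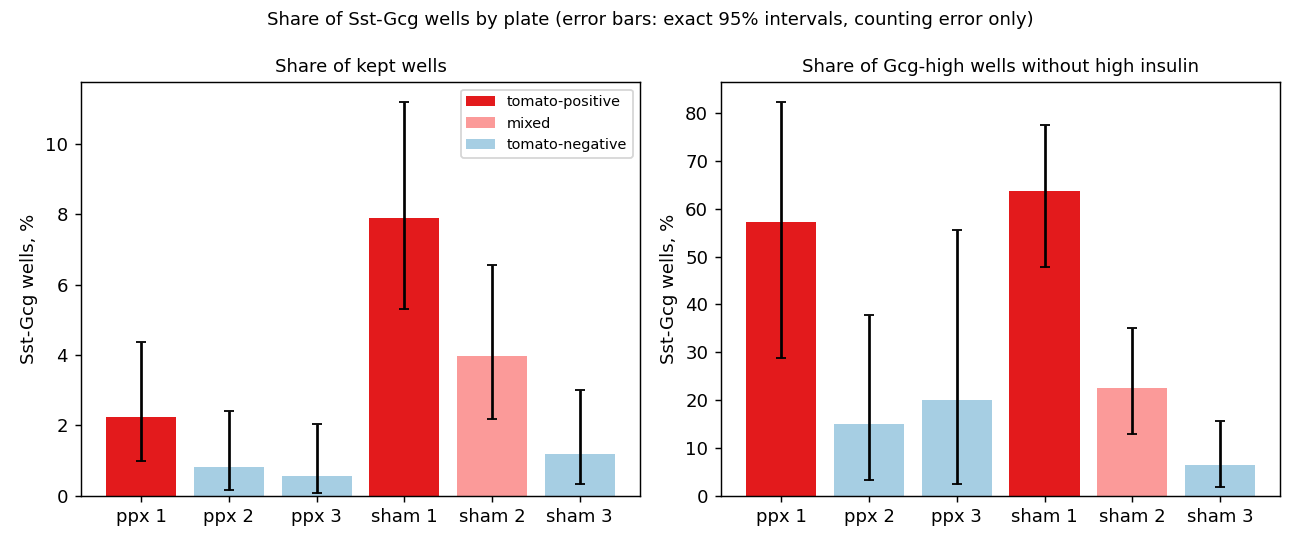
Sst-Gcg wells as percent of the kept wells of each plate (left) and of the Gcg-high wells without high insulin (right), with exact 95% intervals that cover counting error only. Red bars are tomato-positive plates, pink the mixed plate and blue tomato-negative plates; in the right panel ppx 1 (57.1%) and sham 1 (63.6%) stand above the other 4 plates.

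Wells with both hormones were deep. They held 2264 to 14596 UMIs with a median of 5890, against medians of 3457 in glucagon-only and 1582.5 in somatostatin-only wells. They had a median of 2121 detected genes, against 1324 and 814.5 in glucagon-only and somatostatin-only wells, and the median mitochondrial share was 8.11%, against 6.03% and 11.9%. By plate the median depth of the Sst-Gcg wells was 7065, 4958 and 4929.5 UMIs on ppx 1, 2 and 3 and 5750.5, 6680.5 and 4887.5 on sham 1, 2 and 3. The glucagon-only medians were 8997, 3270 and 3986.5 on the ppx plates and 3724.5, 3388 and 2866.5 on the sham plates. The somatostatin-only medians were 1591.5, 1886 and 2008.5 on the ppx plates and 1504.5, 1685 and 1975 on the sham plates.

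Depth in the Sst-Gcg wells was 3.20 times that of somatostatin-only wells (geometric mean of 6 plates), higher on 6 of 6 plates (exact two-sided sign flips, p = 0.0313, the smallest 6 plates allow, 0.0938 after adjustment over 3 depth tests). It was 1.40 times that of glucagon-only wells, with 5 plates above 1, which did not pass (exact two-sided sign flips, p = 0.0938, adjusted 0.141). The exception was ppx 1, with 6 glucagon-only wells and a ratio of 0.785. Set against the sum of the glucagon-only and somatostatin-only medians of the plate, the ratio was 0.667, 0.962 and 0.822 on the ppx plates and 1.10, 1.32 and 1.01 on the sham plates. The geometric mean was 0.958, with 3 of 6 plates above the sum (exact sign-flip p = 0.688). It was 1.03 without ppx 1 and 1.05 in wells with pancreatic polypeptide (Ppy) under 1% of UMIs.

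**Figure D3:**
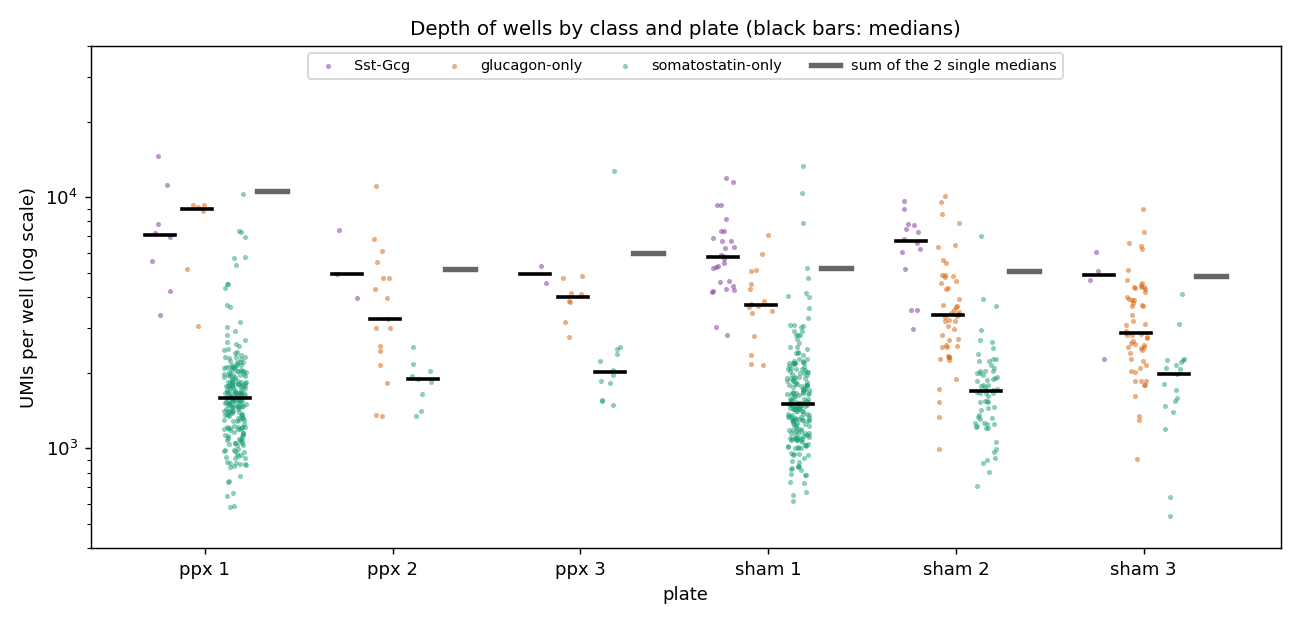
UMIs per well (vertical axis, log scale) by plate for Sst-Gcg, glucagon-only and somatostatin-only wells, with black bars at class medians and a grey bar at the sum of the glucagon-only and somatostatin-only medians. The Sst-Gcg median lies above the somatostatin-only median on all 6 plates, and on both sides of the grey bar, 3 plates above and 3 below.

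Alpha cell genes other than Gcg were present in the Sst-Gcg wells, and none of the 7 tested differed past the threshold from glucagon-only wells. Levels are in CPM, the UMIs of each class summed within a plate and scaled to a common total, and gene tests used the 3 plates with at least 5 wells of each class. Ttr, the transthyretin carrier of thyroid hormone and retinol, had 11808, 19084 and 17922 CPM in Sst-Gcg wells of ppx 1, sham 1 and sham 2, against 15846, 19558 and 27016 CPM in glucagon-only wells and 537, 753 and 820 CPM in somatostatin-only wells. Every plate of the Sst-Gcg wells was far above every plate of the somatostatin-only wells. Slc7a2, a transporter of basic amino acids, had 180.4, 197 and 323 CPM in the Sst-Gcg wells, 513, 504 and 382 CPM in glucagon-only wells and 24.8, 26.6 and 60.4 CPM in somatostatin-only wells. The Sst-Gcg wells lay between the single classes on each plate for this gene. Irx2 was seen in 34 of 59 Sst-Gcg wells (57 UMIs), against 67 of 153 glucagon-only wells (101 UMIs) and 4 of 540 somatostatin-only wells (4 UMIs). Gfra3, a receptor subunit for the artemin growth factor, was at 0 in the somatostatin-only wells and had 29 UMIs in 18 Sst-Gcg wells.

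The delta cell genes Rbp4, Hhex and Frzb were lower in the Sst-Gcg wells than in somatostatin-only wells and higher than in glucagon-only wells on each of the 3 plates. Sstr3, a somatostatin receptor, and Etv1, a transcription factor, did not follow this order, at 124 and 316 CPM in the Sst-Gcg wells, 128 and 375 CPM in glucagon-only wells and 177 and 330 CPM in somatostatin-only wells (means of 3 plates). Rbp4, the retinol carrier of the blood, had 1788, 2342 and 2058 CPM in Sst-Gcg wells of ppx 1, sham 1 and sham 2, against 402, 819 and 640 CPM in glucagon-only wells and 4122, 4553 and 4816 CPM in somatostatin-only wells. The 3 classes did not overlap for this gene. Hhex had 115, 116 and 133 CPM in the Sst-Gcg wells, 22.3, 0 and 0 CPM in glucagon-only wells and 406, 418 and 311 CPM in somatostatin-only wells. Its single UMI in all glucagon-only wells was on ppx 1. Frzb, a secreted Wnt antagonist, had 115, 191 and 200.2 CPM in the Sst-Gcg wells, 67.0, 31.5 and 16.1 CPM in glucagon-only wells and 619, 530 and 432 CPM in somatostatin-only wells. Insulin-only wells also held Frzb, at 278 to 393 CPM over the plates. Ghsr, the ghrelin receptor, had 18 UMIs in 15 Sst-Gcg wells and 104 UMIs in 85 somatostatin-only wells, and none among 587527 UMIs of the glucagon-only wells. Spock3 and Ptprz1 were likewise at 0 in glucagon-only wells and had 8 and 6 UMIs in the Sst-Gcg wells. Of the 12 delta genes listed, Lepr and Pou3f1 were at 0 in all 3 classes, and Bche was at 0 in the Sst-Gcg and glucagon-only wells.

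**Figure D4:**
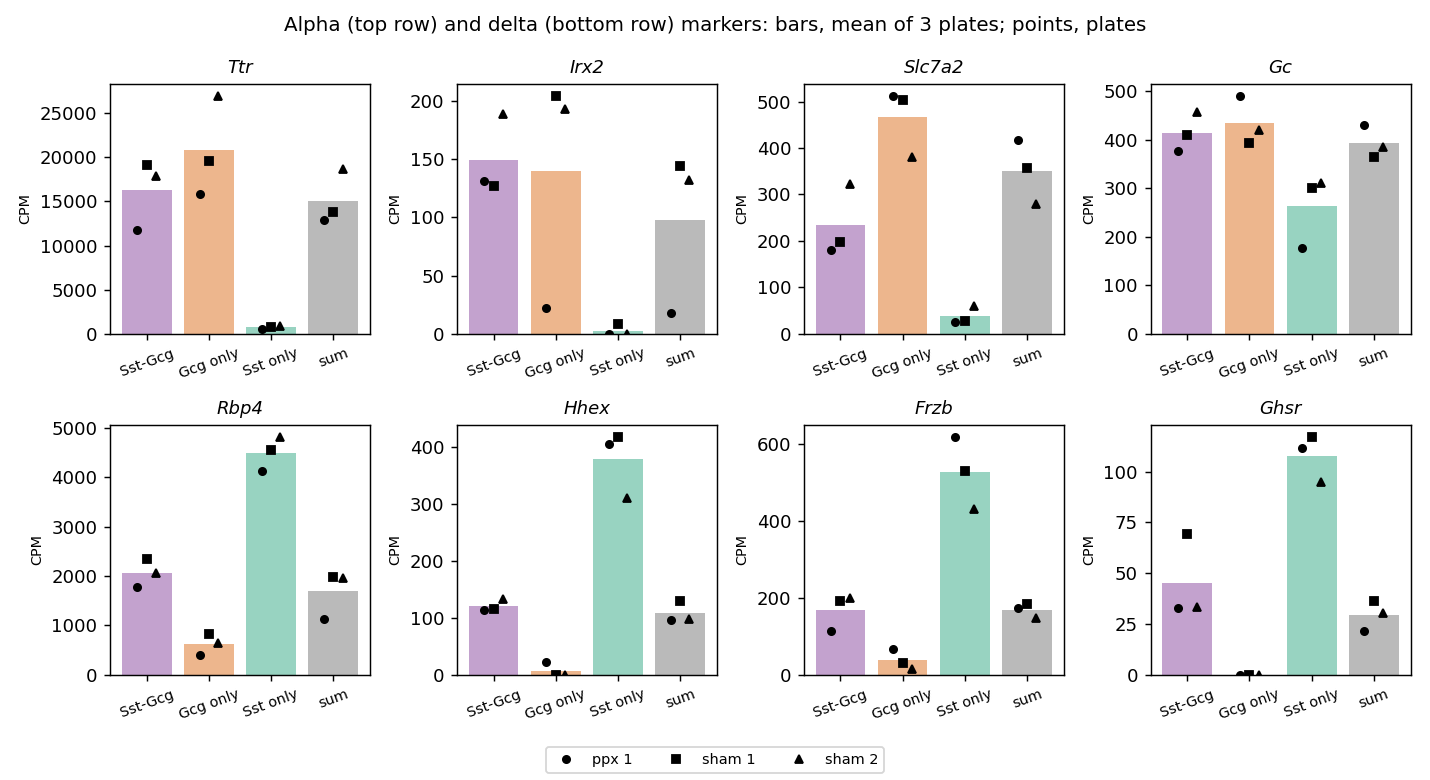
Levels in CPM of the alpha cell genes Ttr, Irx2, Slc7a2 and Gc (top) and the delta cell genes Rbp4, Hhex, Frzb and Ghsr (bottom) in Sst-Gcg, glucagon-only and somatostatin-only wells and in the sum of both single classes; bars are means of 3 plates and points the plates ppx 1, sham 1 and sham 2. The Sst-Gcg bars of Rbp4 and Hhex lie between those of the single classes (2063 CPM for Rbp4, against 620 and 4497) and near the sum (1689).

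Transcription factors of both cell types were found in the same wells. A UMI of Irx1 or Irx2 was found in 37 of 59 Sst-Gcg wells, 78 of 153 glucagon-only wells and 5 of 540 somatostatin-only wells. A UMI of Hhex was found in 22 of 59 Sst-Gcg wells, 1 of 153 glucagon-only wells and 235 of 540 somatostatin-only wells. These factors were chosen after their values were seen. Both were found in 13 Sst-Gcg wells (22.0%, exact 95% interval 12.3% to 34.7%), against 0 of 153 glucagon-only wells (exact upper bound 2.38%), and 2 of 540 somatostatin-only wells (0.370%, interval 0.0449% to 1.33%). Over all possible pairs of 1 glucagon-only and 1 somatostatin-only well of a plate, weighted by the Sst-Gcg wells of each plate, the share was 21.9%. By plate it was 25%, 0% and 0% of the Sst-Gcg wells on the ppx plates, with 8, 3 and 2 wells, and 17.9%, 35.7% and 25% on the sham plates. The pairs gave 6.92%, 13.7% and 25% on the ppx plates and 26.4%, 23.7% and 19.1% on the sham plates. These shares were not matched for depth. The intervals pool the wells of all plates and cover counting error only, not the spread between plates. In insulin-only wells, at a median of 4250.5 UMIs, 1.1% had a UMI of Hhex and 0.7% a UMI of Irx2, against 37.3% and 57.6% of the Sst-Gcg wells.

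After each well was thinned to 1000 UMIs, at least 1 non-hormone alpha gene and 1 non-hormone delta gene were seen in 54 of 59 Sst-Gcg wells (91.5%), 108 of 151 glucagon-only wells (71.5%) and 262 of 482 somatostatin-only wells (54.4%). The other 2 glucagon-only and 58 somatostatin-only wells had too few UMIs. Without thinning the shares were 100%, 94.1% and 70.2%. Insulin-only wells gave 37.8% after thinning and 83.6% without it at a median of 4250.5 UMIs. Frzb was seen in 68.5% of them without thinning, Sstr3 in 45.4% and Slc7a2 in 37.9%, so these lists are not particular to alpha and delta cells, and the part of background RNA was not tested. Sums of 1 glucagon-only and 1 somatostatin-only well, paired in the order of the columns, gave 93.4% (n = 106 sums). Per plate the Sst-Gcg share was 34.7 ± 13.7 points above the somatostatin-only share (SD, n = 6), higher on 6 of 6 plates (exact two-sided sign flips, p = 0.0313, the smallest possible, 0.0625 after adjustment over 2 tests). It was 21.9 ± 31.3 points above the glucagon-only share, with 4 plates above 0 (exact two-sided sign flips, p = 0.156). With Ttr and Rbp4 left out the margin was 25.8 points over somatostatin-only wells (exact sign-flip p = 0.219) and 6.05 points over glucagon-only wells (exact sign-flip p = 0.75). The Sst-Gcg share was then below the glucagon-only share on ppx 1 (12.5% against 66.7%), sham 1 (39.3% against 50%) and sham 3 (0% against 33.3%). Single genes differed in how they were spread over the classes. Hhex was seen in 6.78% of the thinned Sst-Gcg wells, 0% of glucagon-only wells (0 of 151, exact upper bound 2.41%) and 32.2% of somatostatin-only wells. That bound covers counting error only. Irx2 was seen in 16.9%, 11.9% and 0.207% of the thinned Sst-Gcg, glucagon-only and somatostatin-only wells.

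Against glucagon-only wells, more of the called genes were higher in the Sst-Gcg wells than lower. Of 813 genes tested with edgeR's quasi-likelihood test (plate as a block, Benjamini-Hochberg adjusted p under 0.05), 15 passed (1.85%), 13 higher (1.6%) and 2 lower (0.246%). Without ppx 1, 26 genes passed. With DESeq2 size factors the split was 20 higher and 12 lower, and with 6 hormone genes left out of the table it was 20 and 13. The largest increases were in Fam159b, at 323 ± 88.1 CPM in Sst-Gcg wells and 10.6 ± 9.20 CPM in glucagon-only wells (SD, n = 3 plates; log2 fold change 4.49 ± 0.50 SE, edgeR adjusted p = 3.53e-06), and in Cd24a, a cell surface glycoprotein, at 355 ± 83.9 and 42.5 ± 45.4 CPM in Sst-Gcg and glucagon-only wells (3.48 ± 0.48, edgeR adjusted p = 7.56e-05). Rab3b, a small GTPase of regulated secretion, rose by 3.45 on the log2 scale, Sez6l by 3.08 and Hadh, an enzyme of mitochondrial fatty acid oxidation, by 2.16. The mitochondrial ribosomal RNA mt-Rnr1 rose by 0.76. Hadh did not pass without sham 2 (1.82 on the log2 scale).

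Of 13 granule and processing genes tested, 3 rose (Rbp4, Chgb and Scg2), none fell, and the median log2 fold change was -0.07, against -0.01 over all genes tested. Over all 813 genes tested, 1.6% rose and 0.246% fell. Iapp, the amylin hormone made by beta and delta cells of the mouse, had 5182, 6714 and 6163 CPM in the Sst-Gcg wells and 1250, 1795 and 1860 CPM in glucagon-only wells (log2 fold change 1.87 ± 0.15 SE, edgeR adjusted p = 4.11e-08). Rbp4 rose by 1.69 ± 0.14 on the log2 scale (edgeR adjusted p = 5.62e-08). The granins Chgb and Scg2, acidic proteins that help form granules, rose by 1.19 and 1.03. Clu, a secreted chaperone, rose by 1.07 and did not pass without ppx 1 (0.91) or sham 2 (1.08). Chgb had 2165, 2302 and 2325 CPM in the Sst-Gcg wells and 1294, 1071 and 785 CPM in glucagon-only wells. Chga, another granin, had a log2 fold change of -0.49 ± 0.15 and did not pass (edgeR adjusted p = 0.083). Scg3 (-0.16 ± 0.13) and Scg5 (-0.16 ± 0.11), of the same list, did not pass either. Iapp, Rbp4, Chgb, Scg2, Fam159b, Cd24a and Sez6l passed under every alternative in which they were tested.

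The 2 genes that fell against glucagon-only wells were Pappa2, a protease that cleaves insulin-like growth factor binding proteins (-0.76 ± 0.15 on the log2 scale), and Egr1, an immediate early transcription factor (-0.68 ± 0.12). Pappa2 did not pass without sham 1 (-0.69). No gene was called lower with Ppy under 1%, in the DESeq2 Wald test or without the count filter, and both genes lost their call in 4 of 12 alternatives each. Of 38 ribosomal protein genes tested, none passed, 33 were negative and the median was -0.22. No alpha gene passed in either direction. All 7 tested, of 12 listed, were negative, from -0.93 for Slc7a2 (edgeR adjusted p = 0.0547) to -0.02 for Gc, the vitamin D binding protein. Among the others, Smarca1 had -0.68 ± 0.37 (SE), Ttr -0.35 ± 0.18 and Irx2 -0.07 ± 0.39. Of the delta genes, 3 of 12 had enough counts for the test. Rbp4 rose, while Sstr3 (-0.03 ± 0.38) and Etv1 (-0.21 ± 0.22) did not pass. Hhex, Frzb and Ghsr did not pass the count filter in this comparison.

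Against somatostatin-only wells, far more genes differed. Of 2068 genes tested, 184 passed (8.9%), 115 higher (5.56%) and 69 lower (3.34%). Without sham 1 the number was 109. Alpha genes stood out among those that rose, 6 of 7 tested. Irx2 rose by 5.32 ± 0.59 on the log2 scale, a fitted value that rests on very few UMIs in the somatostatin-only wells. Ttr rose by 4.77 ± 0.20 (edgeR adjusted p = 6.4e-22), Slc7a2 by 2.96 ± 0.34 and Gc by 0.86 ± 0.19. Gc lost its call in 3 of 12 alternatives and was also seen in 122 of 540 somatostatin-only wells. The 7 alpha genes ran from -0.39 to 5.32, against a median of 0.01 over all genes tested. Smarca1, a chromatin remodeller, did not pass (-0.39 ± 0.30, edgeR adjusted p = 0.525).

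Other genes that rose as far were not on the alpha list. Lpl, the lipoprotein lipase, had 525, 416 and 567 CPM in the Sst-Gcg wells and 17.3, 37.3 and 51.8 CPM in somatostatin-only wells (4.16 ± 0.28 on the log2 scale). Slc30a8, the zinc transporter of insulin and glucagon granules, rose by 3.87, Pappa2 by 3.72, the kinase Wnk3 by 4.00 and Spc25, a kinetochore protein, by 2.99. Tmsb15b2 (4.50) and Tmsb15b1 (3.31), thymosins that bind actin, are near-identical copies whose reads the counting may have split, so their values are uncertain. Over all 2068 genes tested, 5.56% rose and 3.34% fell. Of 42 ribosomal protein genes tested, 18 rose and none fell, with a median of 0.45, against 0.01 over all genes tested. Of 14 granule and processing genes, 6 rose and 4 fell. Among them Pcsk2, the convertase that makes glucagon from its precursor in alpha cells, rose by 0.84 and Cpe, the carboxypeptidase that trims prohormones, by 0.71. Pcsk1, the other prohormone convertase, fell by 1.13 on the log2 scale, and Chgb and Scg2 fell by 0.76 and 0.72.

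Delta genes made up part of those that fell. Hhex fell by 1.44 on the log2 scale (SE 0.23, edgeR adjusted p = 1.1e-05), Frzb by 1.32 and Rbp4 by 0.88, so 3 of 6 tested passed. Of all genes tested in this comparison, 3.34% fell. Ghsr had -0.85 ± 0.40 and did not pass (edgeR adjusted p = 0.223), nor did Sstr3 (-0.15 ± 0.29) or Etv1 (0.18 ± 0.18). Iapp fell by 1.27, with 5182, 6714 and 6163 CPM in the Sst-Gcg wells and 15042, 16724 and 19533 CPM in somatostatin-only wells. Fam159b fell by 1.29, Cd24a by 1.43 and Hadh by 1.26, genes that had risen against glucagon-only wells. The largest decreases were in Adgrf5, an adhesion receptor (2.34), Stxbp6, a syntaxin binding protein (2.16), Srek1ip1 (2.11), Dpp6, a potassium channel subunit (1.81), Cela1, an elastase (1.69), Cabp7, a calcium binding protein (1.69), Fgf9, a growth factor (1.68), 1190002N15Rik (1.65) and Dio1, a deiodinase of thyroid hormone (1.60), each given as the size of a fall on the log2 scale. The next were Ppp1r1a (1.58), a phosphatase inhibitor, Wbp1 (1.58) and Igsf8 (1.54). These 3, with Srek1ip1 and 1190002N15Rik, lost their call when 1 plate was left out. That plate was sham 1 for Ppp1r1a, sham 2 for Srek1ip1, Wbp1 and Igsf8, and either ppx 1 or sham 1 for 1190002N15Rik. Without these plates the log2 fold changes were -1.85 for Ppp1r1a, -1.91 for Srek1ip1, -1.37 for Wbp1, -1.27 for Igsf8, and -1.34 and -2.32 for 1190002N15Rik. Of 16 immediate early and heat shock genes tested, 3 rose and 3 fell, against 5.56% and 3.34% of all genes tested. Atf3 and Dusp1, which respond quickly to stress, rose by 1.94 and 1.30, Btg2 by 0.52, and the chaperone Dnajb1 fell by 0.85 on the log2 scale. The heat shock genes Hspa1a and Hspa1b fell by 1.34 and 1.48, and as near-identical copies their values are uncertain. Pax6, an endocrine lineage factor of all islet cells, fell by 0.81. The comparisons with glucagon-only and with somatostatin-only wells share the Sst-Gcg libraries, so their values are set side by side and their overlap was not tested.

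Set against the sum of both single classes, almost nothing differed. The sum of a plate was the mean profile over all pairs of 1 glucagon-only and 1 somatostatin-only well, of which glucagon-only wells gave 68.2% to 80.5% of the UMIs on these 3 plates. Of 1022 genes tested, 1 passed (0.0978%), and 55 had an unadjusted p under 0.05. It was Egr1, with 1886, 1995 and 1368 CPM in the Sst-Gcg wells and 3097, 2764 and 2118 CPM in the sum (log2 fold change -0.57 ± 0.12 SE, edgeR adjusted p = 0.00229), lower on each plate. Egr1 passed under 3 of 13 alternatives and was lost without ppx 1 (-0.55), sham 1 (-0.61) or sham 2 (-0.48), and the DESeq2 Wald test called 0 genes. Of 15 immediate early and heat shock genes tested, Egr1 alone passed, 14 were negative and the median was -0.24, against 0.00 over all genes tested.

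No alpha or delta gene passed against the sum. Ttr had a log2 fold change of 0.13 ± 0.15 SE, Irx2 0.45 ± 0.34, Gc 0.14 ± 0.19, Slc7a2 -0.45 ± 0.23 and Smarca1 -0.64 ± 0.33. The 7 alpha genes tested ran from -0.64 to 0.45. Rbp4 had 0.28 ± 0.12, Hhex 0.19 ± 0.36, Frzb 0.12 ± 0.29, Sstr3 -0.14 ± 0.33 and Etv1 -0.14 ± 0.20, and the median of these 5 delta genes was 0.12. Iapp had 0.06 ± 0.13, Ppy 0.06 ± 0.19 and Pyy 0.09 ± 0.15. The standard errors show how far each gene could still differ, and values that missed the threshold are not shown to be equal. Mean levels of the hormones, which chose the wells, were 31493 CPM for Sst and 207356 CPM for Gcg in the Sst-Gcg wells and 27362 CPM and 202934 CPM in the sum.

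**Figure D5:**
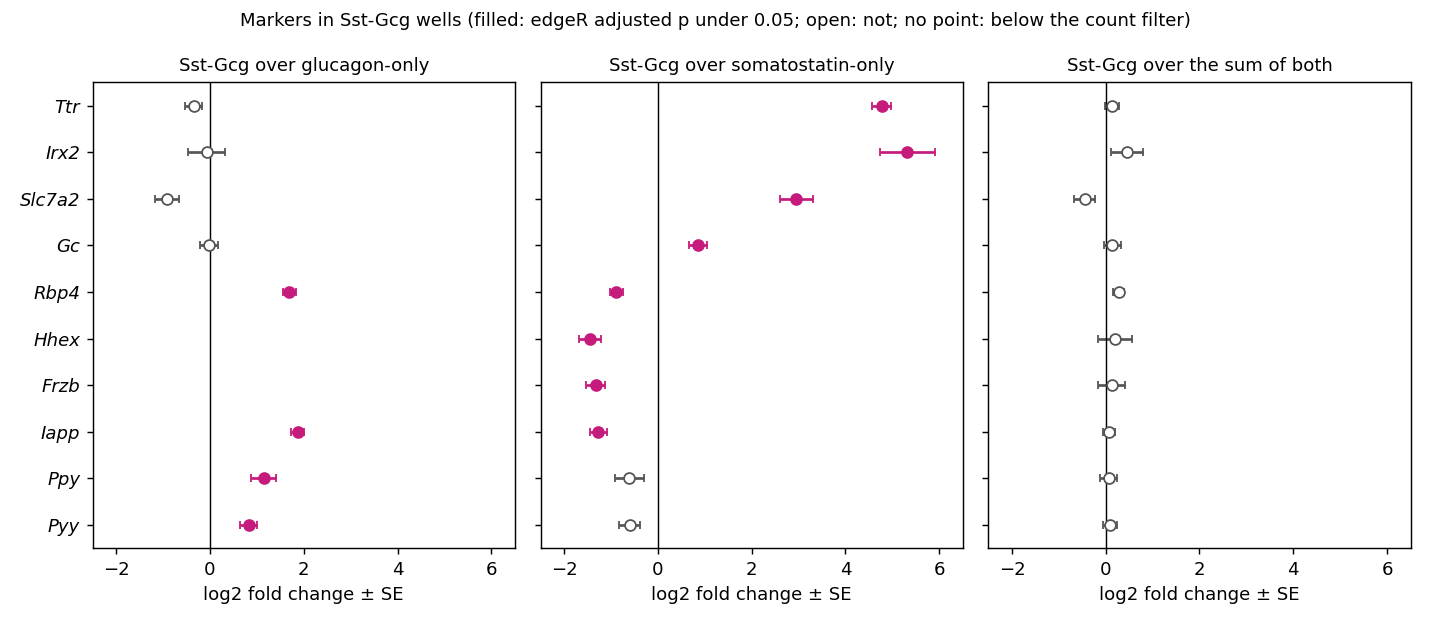
Log2 fold changes with SE (horizontal axis) of 4 alpha genes (Ttr, Irx2, Slc7a2, Gc), 3 delta genes (Rbp4, Hhex, Frzb) and the hormones Iapp, Ppy and Pyy in Sst-Gcg wells over glucagon-only wells, over somatostatin-only wells and over the sum of both; filled points have an edgeR adjusted p under 0.05, open points do not, and genes with no point were below the count filter. All points shown in the right panel are open and lie between -0.45 and 0.45.

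Pancreatic polypeptide and peptide YY, hormones of gamma cells that delta and alpha cells also transcribe, varied within the Sst-Gcg wells. Ppy reached at least 1% of UMIs in 30 of 59 Sst-Gcg wells (50.8%), 35 of 153 glucagon-only wells (22.9%) and 411 of 540 somatostatin-only wells (76.1%). It reached at least 10% in 5, 10 and 20 wells of the Sst-Gcg, glucagon-only and somatostatin-only classes. Its median was 1.06% of UMIs in the Sst-Gcg wells, from 0.120% to 17.2%, against 0.155% in glucagon-only and 2.64% in somatostatin-only wells. In the gene test against glucagon-only wells Ppy rose by 1.14 ± 0.27 on the log2 scale and Pyy by 0.83 ± 0.19 (edgeR adjusted p = 0.0187 and 0.0153). Without sham 1 neither passed (0.74 and 0.80), and Pyy did not pass without sham 2 (0.66). Over the alternatives in which they were tested, Ppy kept its call in 5 of 11 and Pyy in 3 of 11. That rise had no stable sign for Ppy, which gave -0.30 when all 6 plates with at least 2 wells of each class were used. On single plates Ppy was at 55561, 39272 and 10090 CPM in the Sst-Gcg wells of ppx 1, sham 1 and sham 2, against 52203, 9543 and 4074 CPM in glucagon-only wells. Ghrelin (Ghrl) reached 230 CPM in the Sst-Gcg wells of ppx 1 and 127 CPM in those of sham 1, and was at 0 on the other plates. Ghrl was also present in insulin-only wells of those plates (353 and 91.4 CPM).

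Among the 59 Sst-Gcg wells, the hormones were compared with other genes of the same cell types. Spearman's rho over the wells was 0.271 for Sst with Rbp4 and 0.355 for Gcg with Ttr, and within the 28 wells of sham 1 it was 0.600 and 0.479. Sst with Gcg gave -0.248 over all wells and -0.113 in sham 1. Gcg with Ppy gave -0.515 over all wells and -0.548 in sham 1, and Ppy with Ttr -0.586 and -0.559. Sst with Iapp gave 0.561 and 0.418. All of these are shares of the same well total and the wells share 6 plates, so the values are descriptions without a test. Ttr ran from 0.215% to 5.21% of UMIs over the Sst-Gcg wells with a median of 1.60%, and Rbp4 from 0.0270% to 0.531% with a median of 0.191%. Ttr was seen in all 59 wells and Rbp4 in all 59.

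No gene of the Sst-Gcg wells passed the threshold between operations. In the comparison of 3 ppx with 3 sham plates, 0 of 333 genes passed in edgeR (0%) and 0 in DESeq2, with 17 genes at an unadjusted edgeR p under 0.05. Leaving out ppx 2, ppx 3, sham 1 or sham 2 gave 1 called gene each. Ttr averaged 17095 ± 6091 CPM on ppx plates and 21932 ± 5969 CPM on sham plates (SD, n = 3 each; log2 fold change -0.25 ± 0.33 SE). Rbp4 averaged 1443 ± 462 and 2057 ± 285 CPM on ppx and sham plates (-0.39 ± 0.22), and Iapp 5776 ± 604 and 7836 ± 2436 CPM (-0.32 ± 0.26). Ppy averaged 29619 ± 23074 CPM on ppx plates and 20127 ± 16587 CPM on sham plates (0.67 ± 0.44). The groups overlapped for all 4 genes. The smallest p belonged to Rpl34, a ribosomal protein, at 115, 61.2 and 406 CPM on ppx plates and 393, 400.5 and 388 CPM on sham plates (-1.41 ± 0.44, edgeR adjusted p = 0.782). The ppx plates rest on 8, 3 and 2 Sst-Gcg wells, which limits this comparison, and tomato status differs between the plates of each operation.

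Markers of other tissues were rare in the Sst-Gcg wells. No UMI of 6 lymphocyte or 4 erythroid genes was found. Of 7 endothelial genes, Kdr, Plvap, Cdh5, Flt1 and Egfl7 were at 0, and the summed level of the list ran from 0 to 61.2 CPM over plates. Of 7 acinar genes only Cela1 and Ctrb1 were seen (0 to 184 CPM), of 6 macrophage genes 2 (0 to 66.7 CPM), of 6 stromal genes 3 (0 to 55.4 CPM) and of 5 Schwann cell genes 2 (0 to 33.4 CPM). The duct list, with Krt19 and Cftr at 0, stood at 673 to 1116 CPM, against 469 to 781 CPM in glucagon-only and 1252 to 2145 CPM in somatostatin-only wells. Non-insulin beta genes summed to 5609 to 11018 CPM in the Sst-Gcg wells, with Iapp as the leading gene. They summed to 1540 to 3032 CPM in glucagon-only, 14367.5 to 20690 CPM in somatostatin-only and 62643 to 83236 CPM in insulin-only wells.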

How the data were processed

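MARS-seq, which counts UMIs at the 3′ end of transcripts in wells of a plate, was run on 6 plates. The authors deposited raw counts, 1 table of UMIs per plate with 52542 gene rows and 92 ERCC rows (3 UMIs, left out), without normalization. Reads were aligned with HISAT 0.1.6 to mm10, per the submitters' processing notes, while the sources used here give neither the counting tool, its annotation nor its use of strand.

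Of 2304 wells, 96 with fewer than 500 UMIs and 93 with over 20% mitochondrial UMIs were left out. Groups follow the labels. UMIs were summed per plate and class and tested in R 4.3.3 with the quasi-likelihood test of edgeR 4.0.16 (TMM scaling, the filterByExpr filter, plate as a block), with DESeq2 1.42.0 as the second tool. A gene was called at a p under 0.05 after Benjamini-Hochberg adjustment over all genes tested. The sum of both classes was a mean of glucagon-only plus a mean of somatostatin-only UMIs per plate, multiplied by the number of wells of the smaller of these 2 classes and rounded. Sst, Gcg, Ins1 and Ins2 stayed in the tables and were not tested between classes. They were among the 333 genes tested between operations, where none passed. The rule bounded their levels in the Sst-Gcg wells, so no conclusion is drawn from that test for these 4 genes. The fit was tested on simulated data. Shares and depth used exact permutation or sign flips over plates, and thinning drew 1000 UMIs per well once. The smallest p is 0.1 for 3 plates against 3. Alternatives changed thresholds, minimum depth, normalization, filter, plates and Ppy.

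The wells, thresholds and gene lists were chosen with earlier results of these data known. The text names up to 12 called genes per direction by size of change with the same sign on each plate, alpha and delta markers tested, called members of the other lists in part, and a fixed set of hormones. Some results for genes of these lists are not reported here.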

Additional observations from a re-analysis of the deposited data

Results flagged for a closer look

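The depth of the Sst-Gcg wells, relative to the sum of the glucagon-only and somatostatin-only medians, lay on different sides of 1 in the operations. The ratio was under 1 on every ppx plate (0.667, 0.962 and 0.822) and over 1 on every sham plate (1.10, 1.32 and 1.01). The ppx ratio was 0.712 times the sham ratio (exact two-sided permutation of plates, p = 0.1, the smallest possible with n = 3 each, 0.25 after adjustment over 5 such differences). The split depended on adding medians. On sham 3 the Sst-Gcg median of 4887.5 UMIs was below the median of all possible pairs, 4934.5 UMIs. By means, sham 3 was also below the sum, at 4515.25 against 5248.22 UMIs. The other plates kept their side by both measures. Only 8, 3 and 2 Sst-Gcg wells lie behind the ppx values, and ppx 1 has 6 glucagon-only wells with a median of 8997 UMIs. Whether these small numbers account for the difference was not tested.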

How the results depend on the processing

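Leaving out 1 plate at a time gave ppx minus sham differences of -4.71 to -1.36 points for the share of kept wells and -13.4 to 16.2 points for the share of Gcg-high wells. The difference for Gcg-high wells changed sign without ppx 2 (7.68), ppx 3 (5.18) and sham 1 (16.2). The depth ratio to the sum ran from 0.899 to 1.03, and changed side without ppx 1 (1.03) and with Ppy under 1% (1.05). The depth ratio to glucagon-only wells was 1.35 by mean UMIs and then reached the smallest exact sign-flip p (0.0313). The ratio to somatostatin-only wells was 3.29 with doubled Sst and Gcg thresholds, 3.81 with Ppy under 1%, 4.07 on plates with at least 5 wells and 3.00 to 3.37 without 1 plate, where fewer plates cannot reach 0.05. The share of wells with alpha and delta markers exceeded glucagon-only wells by 35.9 points when thinned to 500 UMIs (exact sign-flip p = 0.0313). It exceeded somatostatin-only wells by 37.0 points with doubled thresholds, 27.8 with at least 1000 UMIs, 39.7 with Ppy under 1%, 25.8 without Ttr and Rbp4, and 30.6 to 38.5 without 1 plate. Genes called against glucagon-only wells numbered 26 with doubled thresholds, 25 with at least 1000 UMIs, 7 with Ppy under 1%, 32 with DESeq2 size factors, 8 in the DESeq2 Wald test, 33 without hormone genes and 14 to 26 without 1 plate. Against somatostatin-only wells they numbered 85 with Ppy under 1%, 60 in the Wald test, 113 on plates with at least 2 wells (445 genes tested) and 109 to 166 without 1 plate. Against the sum, 0 genes passed with doubled thresholds, at least 1000 UMIs, the Wald test, no filter, at least 2 wells or no plate block, and 0 without any 1 plate, so Egr1 was lost there. With Ppy under 1%, the 1 gene called was Ppy, whose level had chosen the wells of that setting. Between operations, 1 gene passed with Ppy under 1%, without hormone genes and with the replicate block, and 0 to 1 without 1 plate. Same-numbered ppx and sham plates correlated at 0.109, -0.030 and 0.057 in their deviations. With 8, 3 and 2 Sst-Gcg wells on the ppx plates, these values cannot decide whether the numbers pair the plates. The replicate block left the share difference at -3.13 points (exact sign-flip p = 0.25). Named genes kept their call in 130 of 161 gene and setting combinations against glucagon-only wells and in 282 of 307 against somatostatin-only wells; Ppy (-0.30) reversed on plates with at least 2 wells. The causes of these changes were not tested. Depth limits the low markers, with 18 UMIs of Ghsr and 40 of Hhex in all Sst-Gcg wells.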
